A study of Mus musculus with 5 samples.

Results

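Histone H3 acetylation at lysine 9 (H3K9ac) was described at 10 mouse genes whose products write or erase methylation of the same residue. The 5 writers are Setdb1, Suv39h1, Suv39h2, Ehmt1 and Ehmt2, and the 5 erasers are Kdm4a, Kdm4b, Kdm4c, Kdm3a and Kdm1a. Their peaks were those centred within 10 kb of any transcript start of these genes, which gave 34 of 34286 peaks in DOP-treated cells and 34 of 33355 in vehicle cells. All cells were STHdh Q111/Q111 striatal progenitors on the C57BL/6 background, an established, conditionally immortalised mouse line that carries mutant huntingtin, with an expanded CAG repeat, on both alleles. Both conditions were kept in serum-free medium for 24 h. The DOP group (2 samples) received 4 mM DOP, which is 4-deoxypyridoxine, an inhibitor of sphingosine-1-phosphate lyase, whereas the SST group (2 samples) received the saline vehicle alone. A single IgG immunoprecipitation from cells of the SST condition was also made and was not analysed here, nor were wild-type cells.

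Lysine 9 of histone H3 can carry acetyl or methyl groups, but not both at once on the same tail. Acetylation there is found at the starts of active genes and is laid down by acetyltransferases and removed by histone deacetylases. Methylation by the writers is read by proteins such as HP1 and is linked to silent chromatin, and the erasers remove it by oxidation. The peaks therefore show where the acetyl mark lay at the genes for enzymes that act on its alternative, and they say nothing of the amount or activity of these enzymes.

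The authors deposited 1 peak list per condition, so no error between replicates can be given and every difference below is one between 2 lists, without a test. Each peak is a 200 bp interval with a score of the authors' own, whose definition the lists do not give, and depth is unknown. Scores are therefore also given as percentiles, the rank of a peak within its own list. Of the genes used to check the cell label, Vim, an intermediate filament gene of progenitors, had 3 DOP and 4 SST peaks, while the neural progenitor genes Nes and Sox2 had 0 in either list, as did Alb, Ptprc, Myh6 and Ins2 of other lineages. The defining progenitor markers Nes and Sox2 thus carried no peak in cells labelled striatal progenitor.

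Examples of the peaks are shown first, as read from the mm9 assembly on the strand of the gene, with each CpG dinucleotide in capitals. The highest-scoring peak of the 10 genes in the DOP list lay at chr2:24774708-24774907 in an intron of Ehmt1, on the minus strand, and held 31 CpG. The highest peak in the SST list lay at chr4:136158060-136158259 over a coding exon of Kdm1a, on the minus strand, and held 23 CpG. Both stand for the strong CpG-rich peaks beside the starts.
Ehmt1, highest DOP peak: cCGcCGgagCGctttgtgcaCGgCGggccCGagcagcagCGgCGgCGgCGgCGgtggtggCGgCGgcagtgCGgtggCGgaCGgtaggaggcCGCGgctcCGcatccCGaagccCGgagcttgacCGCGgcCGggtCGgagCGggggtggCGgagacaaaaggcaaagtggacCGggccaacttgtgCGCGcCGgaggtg
Kdm1a, highest SST peak: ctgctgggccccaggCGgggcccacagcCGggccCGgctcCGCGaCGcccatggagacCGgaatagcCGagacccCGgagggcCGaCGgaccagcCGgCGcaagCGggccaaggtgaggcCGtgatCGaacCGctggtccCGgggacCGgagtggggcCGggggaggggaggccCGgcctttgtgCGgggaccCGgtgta

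Of the peaks found in 1 list only, those of the DOP list are printed for comparison. The 3 DOP-only peaks lay in introns of Kdm1a, at chr4:136130935-136131134, chr4:136131362-136131561 and chr4:136150413-136150612, all read on the minus strand. They held 1, 0 and 0 CpG. Of the SST-only peaks, found near Ehmt2, no sequence is given.
Kdm1a, DOP-only peak 1: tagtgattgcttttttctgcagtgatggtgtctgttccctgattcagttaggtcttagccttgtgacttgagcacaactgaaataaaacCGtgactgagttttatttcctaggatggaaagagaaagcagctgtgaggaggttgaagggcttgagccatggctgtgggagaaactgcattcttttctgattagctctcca
Kdm1a, DOP-only peak 2: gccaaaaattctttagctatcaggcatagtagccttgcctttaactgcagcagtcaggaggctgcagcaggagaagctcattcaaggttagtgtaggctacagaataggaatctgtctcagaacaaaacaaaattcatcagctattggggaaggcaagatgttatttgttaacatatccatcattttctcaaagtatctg
Kdm1a, DOP-only peak 3: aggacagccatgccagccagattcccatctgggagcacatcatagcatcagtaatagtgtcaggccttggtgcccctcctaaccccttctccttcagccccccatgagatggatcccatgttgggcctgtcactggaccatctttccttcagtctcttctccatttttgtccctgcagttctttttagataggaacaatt

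The highest DOP peaks of Suv39h2 and Kdm4c are shown as examples of intervals where the lists divided the score differently among neighbouring peaks. Their unscaled ratios to the overlapping SST partner were 1.68 and 1.56, within a range over all pairs of the 10 genes from 0.607 to 1.87. That of Suv39h2 was at chr2:3391902-3392101 on the minus strand, in a coding exon, and that of Kdm4c at chr4:73898028-73898227 on the plus strand, in an intron.
Suv39h2, highest DOP peak: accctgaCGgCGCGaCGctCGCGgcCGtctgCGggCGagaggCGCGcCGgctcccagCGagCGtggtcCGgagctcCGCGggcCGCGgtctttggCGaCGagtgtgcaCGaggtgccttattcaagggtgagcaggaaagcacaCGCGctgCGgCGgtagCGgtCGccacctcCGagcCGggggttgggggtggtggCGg
Kdm4c, highest DOP peak: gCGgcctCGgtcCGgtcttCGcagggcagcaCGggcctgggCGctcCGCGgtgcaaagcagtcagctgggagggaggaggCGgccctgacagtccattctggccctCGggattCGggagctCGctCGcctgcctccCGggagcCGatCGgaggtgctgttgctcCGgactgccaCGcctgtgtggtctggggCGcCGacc

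All 10 genes had a peak in both lists, and each had at least 2. Among all 22380 protein-coding genes, 57.7% had at least 1 DOP peak within 10 kb of a start and 56.9% had at least 1 SST peak. Of the peaks of the 10 genes, 29 of 34 in the DOP list and 30 of 34 in the SST list were centred within 1 kb of a start of the gene. Over all pairs of a gene and a peak within 10 kb, 69.0% of DOP pairs and 69.7% of SST pairs were that close. Measured from the nearest start of the gene to each peak, 8 of the 10 genes in each list had both upstream and downstream peaks within 1 kb, all but Setdb1 and Kdm1a, against 46.6% of all genes with a DOP peak and 44.1% of those with an SST peak. Introns held 21 DOP and 20 SST peaks, coding exons 3 and 5, 5′ UTRs 3 and 5 and a non-coding exon 1 and 1, while 7 and 6 lay outside protein-coding genes. A peak in more than 1 gene was counted under each.

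**Figure D1:**
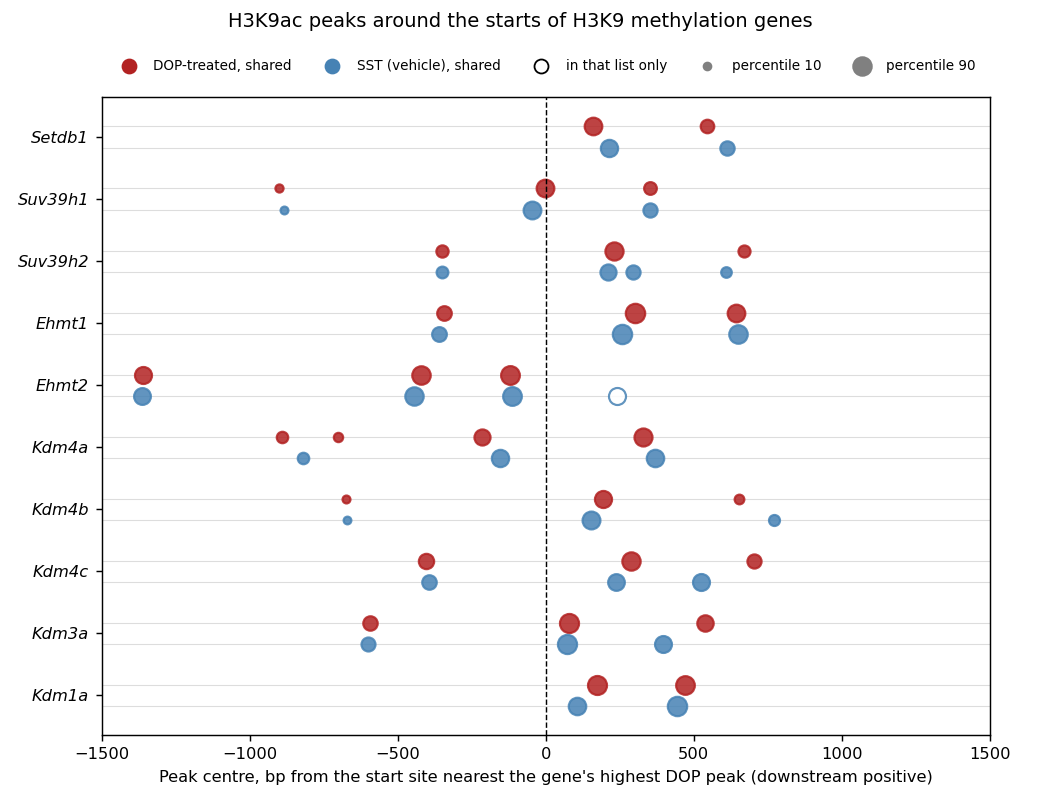
H3K9ac peaks of the 10 genes by distance of the peak centre from the start nearest to each gene's highest DOP peak (bp, downstream positive), with DOP peaks in red above SST peaks in blue, point area by score percentile and open points for peaks of 1 list only. Each filled point lies within 182 bp of a point of the other list, and the open SST point of Ehmt2 has no DOP partner. The map covers 1.5 kb on either side, which leaves out 5 DOP and 4 SST peaks of Kdm1a and Ehmt2.

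The peaks of the 10 genes were largely the same in both lists. By an overlap of at least 1 bp, 31 of the 34 DOP peaks and 32 of the 34 SST peaks had a partner in the other list. DOP-only peaks thus made up 8.82% (95% Wilson interval 3.05% to 23.0%), against 16.2% of all DOP peaks within 10 kb of a protein-coding start. SST-only peaks made up 5.88% (1.63% to 19.1%), against 13.3% of all such SST peaks. Both background shares lie inside these intervals, which cover the counting of peaks only. The intervals treat each peak as independent, whereas the peaks of 1 list only came from 1 gene window in each list. They therefore cannot decide whether the shares differ from the background.

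Peaks found in 1 list only belonged to 1 gene in each list. Kdm1a alone held DOP-only peaks, whereas 37.7% of all genes with a DOP peak held at least 1. With a minimum score of 100 in each list, an alternative chosen after seeing the data, the 3 peaks of Kdm1a dropped out, and the DOP-only peaks were 1 each of Suv39h1 and Kdm4b, whose SST partners scored 91.0 and 88.0. With a reciprocal overlap of 50%, 7 DOP and 5 SST peaks were found in 1 list only and belonged to 5 and 4 genes, as Kdm4b, Kdm4c and Kdm3a entered in both lists and Kdm4a in the DOP list. No share over all peaks or genes is available for this rule, so these counts cannot be set against a background. By the overlap of 1 bp, Ehmt2 alone held SST-only peaks, compared with 32.1% of all genes with an SST peak. Counted by role, the writers had 16 DOP and 20 SST peaks with 0 and 2 found in that list only, and the erasers had 18 DOP and 14 SST peaks with 3 and 0 found in that list only. The difference in count between roles came from Kdm1a, Kdm4a, Ehmt2 and Suv39h2, the genes with unequal numbers. In the Ehmt2 window only 2 of 5 DOP and 3 of 8 SST peaks were nearest to Ehmt2 itself. There, 1 SST-only peak was nearest to Zbtb12. No background share for a split by role is available.

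Peak numbers were equal in both lists at 6 genes (Setdb1, Suv39h1, Ehmt1, Kdm4b, Kdm4c and Kdm3a). The numbers were equal at 39.0% of the 13272 genes that either list marked. Kdm4a and Kdm1a had more DOP than SST peaks, and 32.5% of all genes did so. Suv39h2 and Ehmt2 had fewer, as did 28.5% of all genes.

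To compare the amount of signal given to each gene, scores were summed over the peaks within 10 kb and the DOP sum was divided by the SST sum. Over 12375 genes with peaks in both lists the median of this ratio was 1.07, and each gene's ratio was divided by it. The scaled ratio is thus relative to other genes, and a shift common to all genes is removed. The authors report a rise in overall H3K9ac with DOP on Western blots, which the scaled ratio cannot show. The 10 genes had scaled ratios from 0.813 (Kdm4b) to 1.03 (Kdm4c) with a median of 0.930, against an interquartile range over all genes from 0.905 to 1.12. No member passed 1.5-fold in either direction, while 3.83% of all genes had ratios above it and 2.19% below. Under other settings Suv39h2 passed it, at 1.61 in the higher-scoring 50% of both lists and at 1.59 when the highest peak of each gene was used alone. Of the 10 scaled ratios 3 were above 1 (Suv39h2, Kdm4a and Kdm4c). Without the scaling, 5 of the 10 were above 1, since the unscaled ratios of Setdb1 (1.05) and Kdm1a (1.03) lie between 1 and the median over all genes. The side of 1 on which a gene lay also depended on which peaks entered. In the higher-scoring 50% of both lists the ratios above 1 were those of Suv39h2, Ehmt2 and Kdm3a, while Kdm4a was at 0.957 and Kdm4c at 0.827. These ratios reflect in part which peaks the cut removed. At Kdm3a it kept the DOP peak of 429 (percentile 51.2) and dropped its SST partner of 378 (47.6). At Kdm4c it dropped the DOP peak of 409 (48.8) and kept its SST partner of 673.5. At Suv39h2 it dropped the SST peak of 391 (49.1), which overlaps the DOP peak of 946. With the highest peak of each gene alone, Setdb1 was at 1.06.

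**Figure D2:**
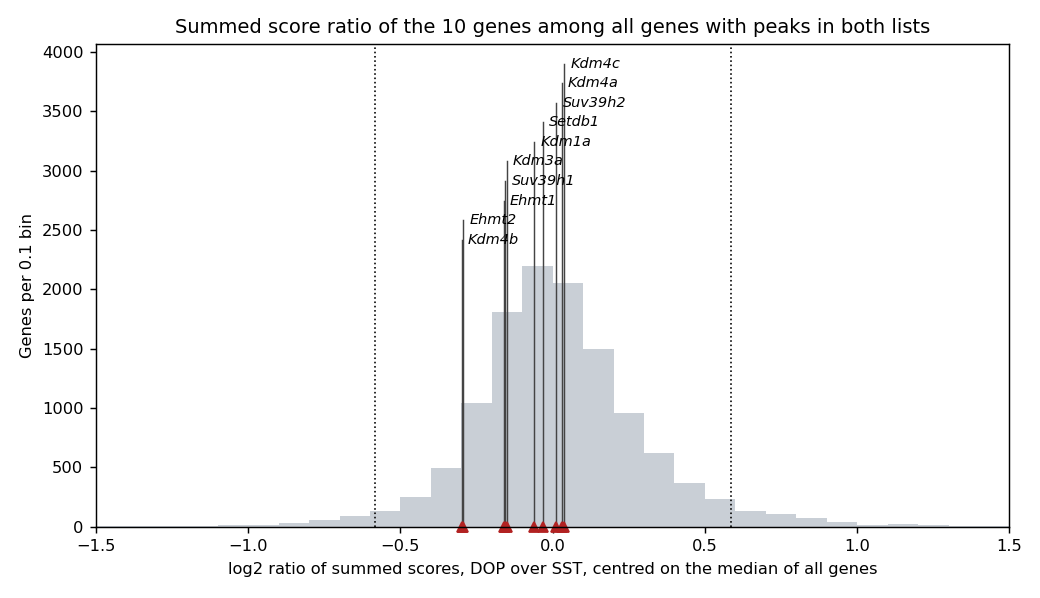
Histogram of the scaled DOP over SST ratio of summed scores (log2, bins of 0.1) over genes with peaks in both lists, with red triangles and labels for the 10 genes and dotted lines at 1.5-fold in each direction. The 10 genes sit between ratios of 0.813 and 1.03, inside the dotted lines, and 5 of them lie below the lower quartile of all genes at 0.905. The axis range leaves out genes at the far ends.

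Among the writers, Setdb1 trimethylates lysine 9 and acts with Trim28 at endogenous retroviruses. It had 2 peaks in each list, all in introns and downstream of its starts on chromosome 3. The DOP scores were 815 and 366 and the SST scores 724 and 402, counted from the start. Their sums were 1181 and 1126, for a scaled ratio of 0.977. The pairs of centres lay 57 and 69 bp apart, so both the position and the score of each peak were close to those of its partner.

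Suv39h1, on chromosome X, and Suv39h2, on chromosome 2, encode the paired enzymes that trimethylate lysine 9 in pericentromeric heterochromatin. Suv39h1 had 3 peaks per list, with its main peak over an exon at the start. That peak scored 828 in the DOP list and 815 in the SST list, at percentiles 80.3 and 80.9. An intronic peak 351 bp downstream scored 314 in the DOP list and 392 at the SST position 2 bp away, and an upstream peak scored 109 and 91.0. The sums were 1251 and 1298, for a scaled ratio of 0.898. Of its peaks, the intronic one alone differed by more than 10 percentile points between the lists, at 49.2 in the SST list and 38.1 in the DOP list.

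At Suv39h2 the DOP list had 3 peaks and the SST list 4, although no peak was without a partner. The DOP list placed a single peak of 946 in a coding exon, at percentile 85.2. In the same stretch the SST list placed a pair of overlapping peaks of 562 and 391, with centres 87 bp apart, which add up to 953. The sums over the gene were 1510 and 1395, and the scaled ratio was 1.01. The strongest single peak thus looked higher in the DOP list, whereas the score of the whole stretch did not.

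Ehmt1, on chromosome 2, and Ehmt2, on chromosome 17, encode the subunits GLP and G9a of the complex that makes mono- and dimethyl lysine 9 in euchromatin. Ehmt1 had the strongest DOP peak of the 10 genes, with a score of 1729.6 at percentile 98.1, and its SST partner scored 1661 at percentile 97.6. A second intronic peak scored 822 in the DOP list and 1027 in the SST list. The third, upstream of the start, scored 443 and 432. With sums of 2995 and 3120, Ehmt1 had a scaled ratio of 0.894, below the lower quartile of all genes.

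Over the 10 kb window Ehmt2 had the largest sums of the 10 genes, 3842 in the DOP list over 5 peaks and 4385 in the SST list over 8. Only 2 of the DOP and 3 of the SST peaks were nearest to a start of Ehmt2 itself. These summed to 2193 and 2766, below the 2995 and 3120 of Ehmt1, so the rank rests on peaks of neighbouring genes. One more peak in each list lay in the 5′ UTR of C2, a complement gene on the opposite strand whose start is 17 bp from the first start of Ehmt2. The remaining 2 DOP and 4 SST peaks were nearest to Zbtb12, and their scores added up to 941 and 968.

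The peaks of Ehmt2 proper lay in introns, with 1 SST centre over a coding exon, and were similar where both lists had them. They scored 1037 and 1156 in the DOP list, and 982.5 and 1106.5 in the SST list. The SST list had an additional intronic peak, with a score of 677 at percentile 73.5, whose nearest DOP centre was 360 bp away. Among all 3855 SST-only peaks near starts, 211 (5.47%) scored as high or higher, and their median percentile was 22.6. The scaled ratio of Ehmt2 was 0.816 over 10 kb, 0.796 over peaks within 1 kb of any of its starts and 0.739 over the peaks nearest to Ehmt2. Each of these included the SST-only peak of 677. The shared pairs nearest to Ehmt2 had unscaled ratios of 1.06 and 1.05, beside a median of 1.09 over all pairs. The scaled ratio of Ehmt2 was 1.01 when the higher-scoring 50% of both lists was used, so its direction depends on which peaks enter. That cut kept a DOP peak of 717.5 nearest to Zbtb12 and dropped its SST partner of 383, at percentile 48.2. The value of 1.01 therefore does not describe the peaks of Ehmt2 proper. The other SST-only peak, in the 5′ UTR of Zbtb12, scored 152 at percentile 18.3.

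Among the erasers, Kdm4a, Kdm4b and Kdm4c encode Jumonji demethylases that remove di- and trimethyl groups from lysine 9. Kdm4a, on chromosome 4, had 4 DOP and 3 SST peaks. Its intronic DOP peaks scored 906 and 581, and the SST partners scored 754 and 731. Upstream of the starts the DOP list had overlapping peaks of 245 and 152 where the SST list had a single one of 234. With sums of 1884 and 1719 the scaled ratio was 1.02, and the additional DOP peak still overlapped an SST peak, by 81 bp.

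Kdm4b, on chromosome 17, had the lowest scaled ratio of the 10, at 0.813. It also had the lowest DOP sum, 992, with 1137 in the SST list. The main intronic peak scored 722 in the DOP list and 837 in the SST list, and a second, 117 bp apart between the lists, scored 168 and 212. An upstream peak was almost the same in both, with scores of 102 and 88.0 and centres 3 bp apart. At percentile 9.34 of all genes the ratio was low but still above the 5th percentile of all genes, 0.755.

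Kdm4c, on chromosome 4, carried its mark at an internal start. All 3 peaks of each list lay around a start 9439 bp downstream of the first annotated one, and 1 of its 4 starts had a peak within 1 kb. The DOP scores from upstream to downstream were 501, 990.2 and 409, and the SST scores 417, 633.5 and 673.5. The order of the last peaks was thus reversed between the lists, with the last pair of centres 182 bp apart, the widest offset among the 10 genes. Summed, the scores were 1900 and 1724, for a scaled ratio of 1.03.

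Kdm3a, on chromosome 6, encodes a demethylase of mono- and dimethyl lysine 9. Its main peak lay in the 5′ UTR and was among the strongest of both lists, with scores of 1335 at percentile 94.6 and 1419 at percentile 95.6. The downstream peak scored 619 in the DOP list, over a coding exon, and 668 in the SST list, in an intron 141 bp away. The upstream peak scored 429 and 378. The sums of 2383 and 2465 gave a scaled ratio of 0.901.

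Kdm1a, on chromosome 4, encodes the flavin-dependent demethylase LSD1, best known for lysine 4 and described for lysine 9 with some nuclear receptors. It had 5 DOP and 2 SST peaks. Beside its starts each list had a pair of strong peaks, of 1299 and 1118 in the DOP list and of 760.3 and 1724 in the SST list, from 5′ to 3′. The stronger peak of the pair was therefore the first in one list and the second in the other, while the pair summed to 2417 and 2484. Over the whole window the DOP sum was 2556.

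The additional 3 DOP peaks of Kdm1a were weak. They scored 34.8, 28.2 and 76.0, at percentiles 1.61, 0.70 and 6.90, and together made up 5.44% of the DOP sum of the gene. Their nearest SST centres lay 27125, 26698 and 7647 bp away. Of all 4795 DOP-only peaks near starts, 15.2% scored no more than the strongest of these, and the median percentile was 22.0. Without them the scaled ratio of Kdm1a was 0.907 in place of 0.959.

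**Figure D3:**
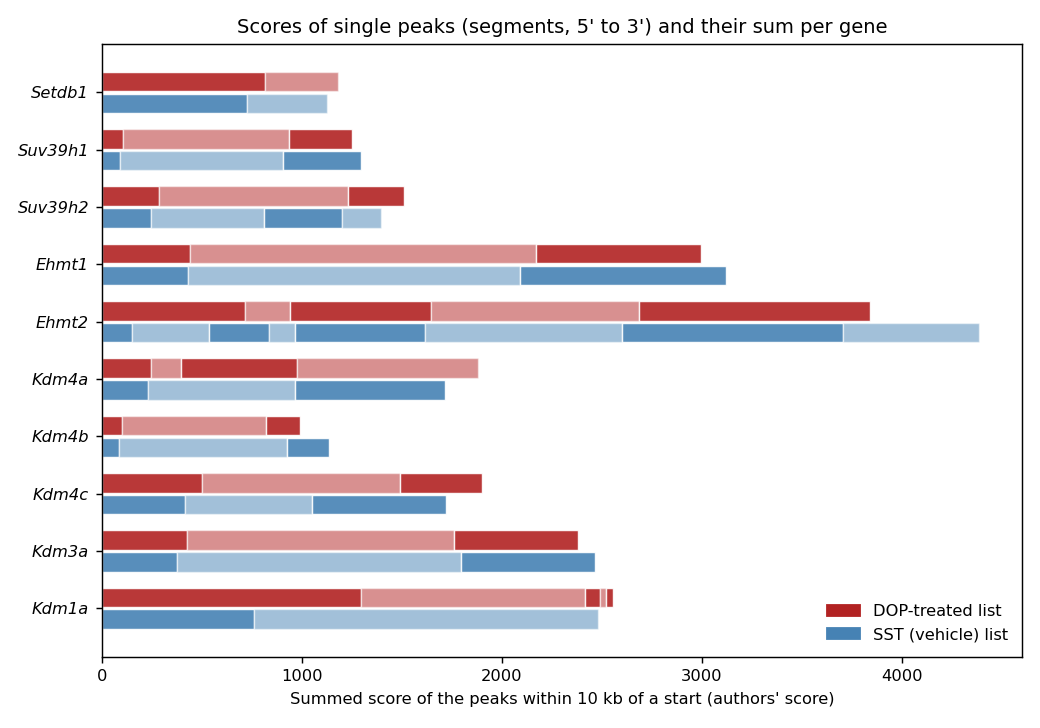
Summed authors' score per gene in the DOP list (red) and the SST list (blue), with each segment 1 peak in 5′ to 3′ order. Bars of a gene end close together, from 992 and 1137 at Kdm4b to 3842 and 4385 at Ehmt2, while segments of Suv39h2, Kdm4c and Kdm1a divide the bar differently.

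Position and rank of partner peaks varied by amounts close to those over all pairs. The 10 genes held 30 pairs of peaks that were each other's best partner, of 25377 in all. Centres were a median of 34 bp apart, compared with 29 bp over all pairs. The percentile differed by a median of 5.90 points, compared with 5.10, and by over 10 points in 8 of 30 pairs, compared with 27.3% of all. Percentiles were higher in the DOP list in 17 pairs and lower in 13, while those of 59.0% of all pairs were higher. The pair ratios, without scaling, ran from 0.607 to 1.87, and the 5th to 95th percentiles of all pairs from 0.646 to 1.91.

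Within each list, the scores of neighbouring peaks mostly added up to whole numbers. Scores have 1 decimal, yet in every one of the 10 genes the scores within the window added up to a whole number in each list (within 0.05). Over all clusters of at least 2 peaks with centres within 1 kb, 93.7% of 10117 in the DOP list and 93.2% of 9910 in the SST list did so, whereas 30.5% and 30.3% of the single peaks in them had a whole score. 

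The summed scores of the 10 genes had a median of 1892 in the DOP list and 1721.5 in the SST list, against 1513 and 1437 over all genes with a peak, and 6 of 10 were above that median in each list. The quartiles over all genes were 784 and 2573 in the DOP list and 719 and 2495 in the SST list, so the medians of the 10 genes lay inside them. The lowest sums of the 10 genes, 992 and 1126, were above the lower quartiles. The strongest peak of each gene had a median percentile of 86.0 in the DOP list and 81.4 in the SST list, against 78.4 and 77.3. Over single peaks the median percentiles were 61.8 and 68.1, against 55.2 and 55.1 for all peaks near starts. With 10 genes and no replicate these medians are a description.

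CpG content varied widely, also among strong peaks beside the starts. It reached 35 CpG in the DOP peak of Kdm1a that scored 1299, whereas the DOP peak of Kdm4a that scored 906 held 6. DOP peaks of the 10 genes held 0 to 35 CpG with a median of 10, and SST peaks 3 to 36 with a median of 12.5. Over all peaks the medians were 10 and 11. GC content had medians of 57.8% and 62.3%, and 59.5% over all peaks of each list. The poorest peaks in CpG were the 3 DOP-only ones of Kdm1a, which were also the weakest in score, and 5.68% of all DOP peaks held at most 1 CpG. The SST-only peaks near Ehmt2 held 4 and 6 CpG, at percentiles 18.3 and 73.5.

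**Figure D4:**
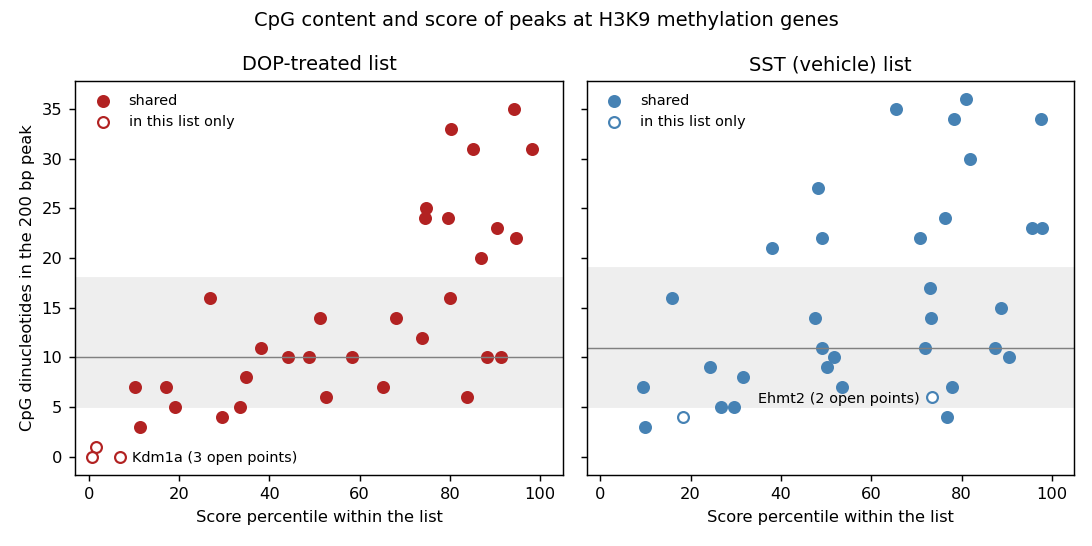
CpG dinucleotides in each 200 bp peak of the 10 genes against its score percentile, for the DOP list (left) and the SST list (right), with open points for peaks of that list only. The grey line and band are the median and interquartile range of all peaks of the list (5 to 18 CpG in DOP, 5 to 19 in SST). The open points of Kdm1a lie at the lower left, and those of Ehmt2 in the lower part of the SST panel.

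For 300 bp around the start nearest each gene's highest DOP peak (250 bp before and 50 bp after), the 10 genes had a median of 33 CpG and an observed over expected CpG ratio of 0.881. Over all 12910 genes with a DOP peak, the medians were 23 and 0.791. Suv39h1 held the most, 46 CpG, and Kdm4a the fewest, 12. The GC content was 69.5% at the median, against 62.7% for all. Ehmt2 stood low among the 10 with 15 CpG and a ratio of 0.479.

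Short motifs were searched in the same 300 bp on both strands, and none of the 7 motifs contains another. The GC box (GGGCGG) was present at 9 of the 10 genes, all but Ehmt2, and at 64.1% of all genes. In the peaks themselves it was present in 7 of 34 DOP peaks (20.6%) and 10 of 34 SST peaks (29.4%) of the 10 genes, and in 28.5% and 29.3% of all peaks. The CCAAT box (CCAAT) was present at Kdm4a, Kdm4b and Kdm1a and at 34.0% of all, and the ETS motif (CCGGAAG) at Setdb1 and Kdm3a and at 17.0% of all. The E box (CACGTG) was found at Kdm4c alone (9.02% of all) and the cAMP response element (TGACGTCA) at Suv39h2 alone (3.04% of all). The TATA box (TATAAA, 5.72% of all) and the NRF1 core (GCGCATGC, 4.70% of all) were in none of the 10. A match gives letters in the window and is not evidence of binding.

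The wider pathway was described with 24 further genes. They were 8 other methyltransferases or partners, 8 other demethylases or relatives and 8 readers of lysine 9 methylation or partners of readers. The last group includes the HP1 genes Cbx1, Cbx3 and Cbx5. Peaks were present at 23 of the 24 genes in each list, beside the 57.7% and 56.9% of all genes. They had 104 DOP and 103 SST peaks, of which 12 in each list were without a partner, beside 16.2% and 13.3% of all peaks near starts. The 3 peaks of Kdm4b in each list also lie within 10 kb of a start of Uhrf1, a reader, and are counted again here. Prdm16, a methyltransferase gene active in brown fat and neural stem cells, had none in either list. DOP peaks outnumbered SST peaks at 9 genes, were fewer at 7 and equal at 7, beside 32.5%, 28.5% and 39.0% of all genes with a peak. The scaled ratios ran from 0.822 (Cbx1) to 1.34 (Phf8) with a median of 0.978, and none of the 23 passed 1.5-fold, beside 3.83% of all genes above it and 2.19% below.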

How the data were processed

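H3K9ac was immunoprecipitated from Q111 cells (2 DOP and 2 SST samples, 1 IgG sample) and sequenced single-end. The authors aligned reads to mm9 (their methods name Bowtie 2, the submitters' processing notes BWA 0.7.10) and called peaks with GPS, and deposited 1 peak list per condition with a score per peak. Peak totals in the study's methods differ from those of the deposited lists, which were used whole. How the samples and the IgG control entered the call is not given in the sources used here.

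Peaks were assigned with GENCODE vM1 (Ensembl 65) when the centre lay within 10 kb of any transcript start. Peaks overlapping by at least 1 bp were shared. Summed scores were compared as DOP over SST, divided by the median over genes, with a threshold of 1.5-fold and no test. Sequences came from the NCBIM37 (mm9) assembly, and no peak passed a chromosome end. No sequence of the SST-only peaks is reported here. Alternatives were other windows, overlaps, score subsets and scalings, and a minimum score of 100, added after seeing the data. Functions were tested on simulated data. The 10 genes and the lists were chosen with earlier results of these data known. All 10 were named, as were further genes without peaks or past 1.5-fold; those at the ends of a range were named after their values were seen. Software was Python 3.11.15 with pysam 0.24.0, pandas 2.3.3, numpy 2.4.6, matplotlib 3.10.9 and scipy 1.17.1.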

Additional observations from a re-analysis of the deposited data

How the results depend on the processing

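Of 143 values recomputed under 13 alternative settings, 127 stayed within 1.5 times the reported one. That limit is wide for ratios near 1. In the higher-scoring 50% of both lists, Kdm4c went from 1.03 to 0.827, Ehmt2 from 0.816 to 1.01 and Setdb1 from 0.977 to 0.692, all within it. With a window of 1 kb, DOP-only peaks numbered 0, SST-only peaks 1 and genes with more DOP than SST peaks 1, so that the DOP-only peaks of Kdm1a rest on the wider window. They also drop out with a minimum score of 100, which left 31 DOP and 32 SST peaks, with 2 DOP-only (Suv39h1 and Kdm4b) and 2 SST-only. When the nearest start had to be that of the gene, 1 SST-only peak was left. Keeping the higher-scoring 50% of both lists left 20 DOP and 21 SST peaks, 1 gene with more DOP peaks, and 1 gene past 1.5-fold, Suv39h2 at 1.61. At Suv39h2 this cut dropped the SST peak of 391, which overlaps the highest DOP peak. Suv39h2 was also the 1 gene past 1.5-fold (1.59) when only the highest score in the window was used, where the SST list divides the signal between overlapping peaks. A reciprocal overlap of 50% gave 7 DOP-only and 5 SST-only peaks, centres within 0.5 kb gave 1 SST-only peak and centres within 1 kb gave 0. Without scaling, 5 genes had ratios above 1. Over all settings the scaled ratios ran from 0.692 to 1.61.

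No paired analysis was possible because each condition had 1 list, whose rows carry no replicate. Leaving out 1 sample was not possible either. With depth unknown, an absent peak and one below the authors' threshold cannot be told apart.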

Other observations

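Among the 24 further genes of the pathway, 3 were looked at for their values. Mecom, a gene for a transcription factor with a methyltransferase domain, carried the most DOP peaks of the 24 genes, with 11 in the DOP list (3 of them DOP-only) and 8 in the SST list (1 SST-only). Its summed scores were 10512 and 8318 and its scaled ratio 1.18. Atf7ip, which encodes the partner that stabilises Setdb1, had 2 weak peaks in each list, the stronger at percentiles 21.4 and 17.5, and a scaled ratio of 1.31 on summed scores of 295 and 209. Cbx3, which encodes HP1 gamma, had the strongest single peaks, at percentiles 99.5 and 99.4, with 4 DOP and 5 SST peaks, 0 of them found in 1 list only, and a scaled ratio of 0.871. Only 2 of its peaks in each list were nearest to its own start.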
